A study of Mus musculus with 2 samples.

Results

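The 7 genes described here encode 6 receptors of the signalling lymphocytic activation molecule (SLAM) family and the adaptor that most of them share. They were chosen by name, with earlier results of these data known, and both count matrices hold all 7 of their 27998 genes. The receptors are Slamf1, Cd48, Ly9, Cd84, Slamf6 and Slamf7, and the adaptor is Sh2d1a, which encodes SAP. Their transcripts were followed in T cell subsets gated on marker genes, in a cluster with natural killer (NK) receptors and in antigen-presenting cells, with the knockout (KO) set beside the wildtype (WT).

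Both libraries hold immune cells sorted from B16Ova tumors, a mouse B16 melanoma line that expresses ovalbumin, grown under the skin of the flank in female mice and taken on day 13. Both groups carry floxed Tcf7 alleles (Tcf7 FL/FL). The WT animals are E8i-cre- and the KO animals are E8i-cre+, and the E8i enhancer drives Cre in mature CD8 T cells, so Tcf7 is targeted in those cells. Cells of 3 tumors per group were pooled. Sorting gave 2000 cells per tumor from each of 4 gates, 1 for each T cell lineage, 1 for dendritic cells and 1 for the remaining CD45+ cells, and 7000 of the mixed cells went into a channel. There is thus 1 library per genotype and the barcodes do not name the tumor. No test of genotype is possible, and every interval below covers counting error only.

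SLAM family receptors sit on the surface of blood cells. Most of them bind a copy of themselves on a neighbouring cell, while CD48 is the ligand of CD244 and also binds CD2. When engaged, the tails of most of these receptors recruit SAP, which brings in the kinase Fyn, and where SAP is missing the same tails can recruit inhibitory phosphatases instead. CD48 is held in the membrane by a lipid and has no such tail, and SLAMF7 signals through the related adaptor EAT-2 (Sh2d1b1). In T cells the pathway is known for contacts with B cells and for the development of innate-like T cells, and SLAMF6 is widely used as a surface marker of the stem-like CD8 T cells that contain TCF-1, the product of Tcf7.

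The 6 receptor genes lie side by side on mouse chromosome 1, within 364.5 kb from the first start to the last end, and Sh2d1a lies apart on the X chromosome. In the GENCODE annotation on GRCm38 the order is Ly9 (chr1:171588624-171607410, minus strand), Slamf7 (chr1:171632403-171653035, minus), Cd48 (chr1:171682009-171705258, plus), Slamf1 (chr1:171767127-171801184, plus), Cd84 (chr1:171839697-171890718, plus) and Slamf6 (chr1:171917515-171953170, plus). Sh2d1a occupies chrX:42502453-42529330 on the plus strand. Ly9 lies inside the span of Cd244 on the other strand, and Sh2d1a overlaps Tenm1 on the other strand. The labels do not say whether the counting used strand, so counts of overlapping genes carry that uncertainty.

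The study removes a DNA-binding factor of the TCF/LEF family, so the stretch before each start is shown for 2 receptors whose transcripts were at least 1.5-fold lower in KO CD8 T cells (Slamf6 and Cd84) and for 2 that were not (Cd48 and Slamf7). The sequences are the 250 bases before the RefSeq start on GRCm38.p6, 5′ to 3′ on the strand of the gene. Capitals mark the core motif CTTTGA or CTTTGT, which was searched on both strands.
Slamf6, chr1:171917212-171917461, plus strand: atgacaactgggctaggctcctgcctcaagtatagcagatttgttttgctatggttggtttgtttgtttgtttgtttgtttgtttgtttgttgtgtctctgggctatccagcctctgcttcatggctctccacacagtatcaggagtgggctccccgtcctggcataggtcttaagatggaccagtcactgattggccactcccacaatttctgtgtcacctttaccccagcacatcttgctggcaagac
Cd84, chr1:171839447-171839696, plus strand: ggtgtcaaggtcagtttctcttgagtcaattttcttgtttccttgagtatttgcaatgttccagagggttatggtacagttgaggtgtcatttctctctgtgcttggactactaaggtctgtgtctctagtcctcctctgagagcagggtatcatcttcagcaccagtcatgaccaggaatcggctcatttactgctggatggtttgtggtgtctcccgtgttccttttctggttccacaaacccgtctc
Cd48, chr1:171681742-171681991, plus strand: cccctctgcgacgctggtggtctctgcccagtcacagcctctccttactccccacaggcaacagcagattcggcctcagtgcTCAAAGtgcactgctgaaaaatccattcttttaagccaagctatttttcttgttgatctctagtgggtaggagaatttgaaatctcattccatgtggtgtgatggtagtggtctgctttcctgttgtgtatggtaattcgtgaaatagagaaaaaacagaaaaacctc
Slamf7, chr1:171649000-171649249, minus strand: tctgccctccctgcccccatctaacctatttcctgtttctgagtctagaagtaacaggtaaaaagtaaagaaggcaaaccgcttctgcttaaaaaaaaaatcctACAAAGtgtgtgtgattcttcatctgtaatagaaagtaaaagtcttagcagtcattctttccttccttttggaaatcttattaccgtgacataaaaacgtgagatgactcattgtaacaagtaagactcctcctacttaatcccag
RefSeq windows of 250 bases before to 50 bases after the start were at hand for 5 of the 7 members. Cd48 and Slamf7 each held 1 match, read on the strand opposite to the gene, and its first base lies at -168 and at -146 from the start. The windows of Slamf6, Cd84 and Slamf1 held no match. The RefSeq start of Slamf7 lies inside the GENCODE span printed above, so the annotations give different starts for this gene. Of 32851 such windows over all genes, 10249 (31.2%) held at least 1, so 2 of 5 is near the share over all genes. A match is only a run of letters, and its absence says only that these letters are not in this window.

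The filters kept 980 WT cells (median 6144.5 UMIs) and 1084 KO cells (median 8170 UMIs), and 1 barcode occurred in both libraries. Levels are given as CPM, the UMIs of a gene scaled to the total UMIs of the class in that library. In CD8 T cells Tcf7 was at 156 CPM in WT and at 53.0 CPM in KO, a KO to WT ratio of 0.340 (95% interval 0.266 to 0.433). This is the direction the labels call for. In naive-like CD8 T cells the Tcf7 ratio was 0.679 (0.459 to 0.993) and in cycling ones 0.277 (0.115 to 0.646). It was 0.477 (0.249 to 0.888) in Gzmk-positive and 0.692 (0.395 to 1.21) in Gzmb/Prf1-positive cells. The ratio of the class also depends on the mix of these subsets, since cycling cells gave 38.2% of its WT and 61.4% of its KO UMIs. Which exons Cre removes and which end of the transcript was read are not given in the labels, and what the remaining Tcf7 UMIs stand for was not tested. Tcf7 was also lower in KO CD4 T cells, which the Cre does not target, at 124 and 84.1 CPM (0.680, 0.518 to 0.891). The cluster with NK receptors goes partly against its label, since 14 of its 19 WT cells and 17 of its 27 KO cells held a Cd3 UMI. CPM are not scaled by gene length, so levels are compared between cell classes and not between genes.

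Each member had its own distribution over the cell classes. Sh2d1a marked the lymphoid side, Cd48 was present nearly everywhere, and Slamf1 was highest in CD4 T cells. Slamf7 was highest in macrophages, cDC1s, cDC2s and mature dendritic cells (DCs), and a granzyme-positive CD8 T cell subset came next. In WT, plasmacytoid DCs (60.5 CPM, 12 UMIs) and monocytes (53.3 CPM, 11 UMIs) had less Slamf7 than granzyme-positive CD8 T cells. In KO they were at 130 and 115 CPM, between Gzmb/Prf1-positive (154 CPM) and Gzmk-positive CD8 T cells (109 CPM). In the 15 non-overlapping classes Sh2d1a ranged in WT from 1.24 CPM in mature DCs to 302 CPM in Gzmk-positive CD8 T cells. Slamf7 ran from 6.53 CPM in Foxp3-positive CD4 T cells to 266 CPM in macrophages. Few neighbours in these orders could be told apart at this depth, since 0 to 2 of the 14 neighbouring pairs per gene and library had a ratio whose interval left out 1. In the 33 melanoma cells, which should lack all 7 genes, 1 UMI was found over all members (Cd84, in KO), at median depths of 962 and 1983 UMIs.

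**Figure D1:**
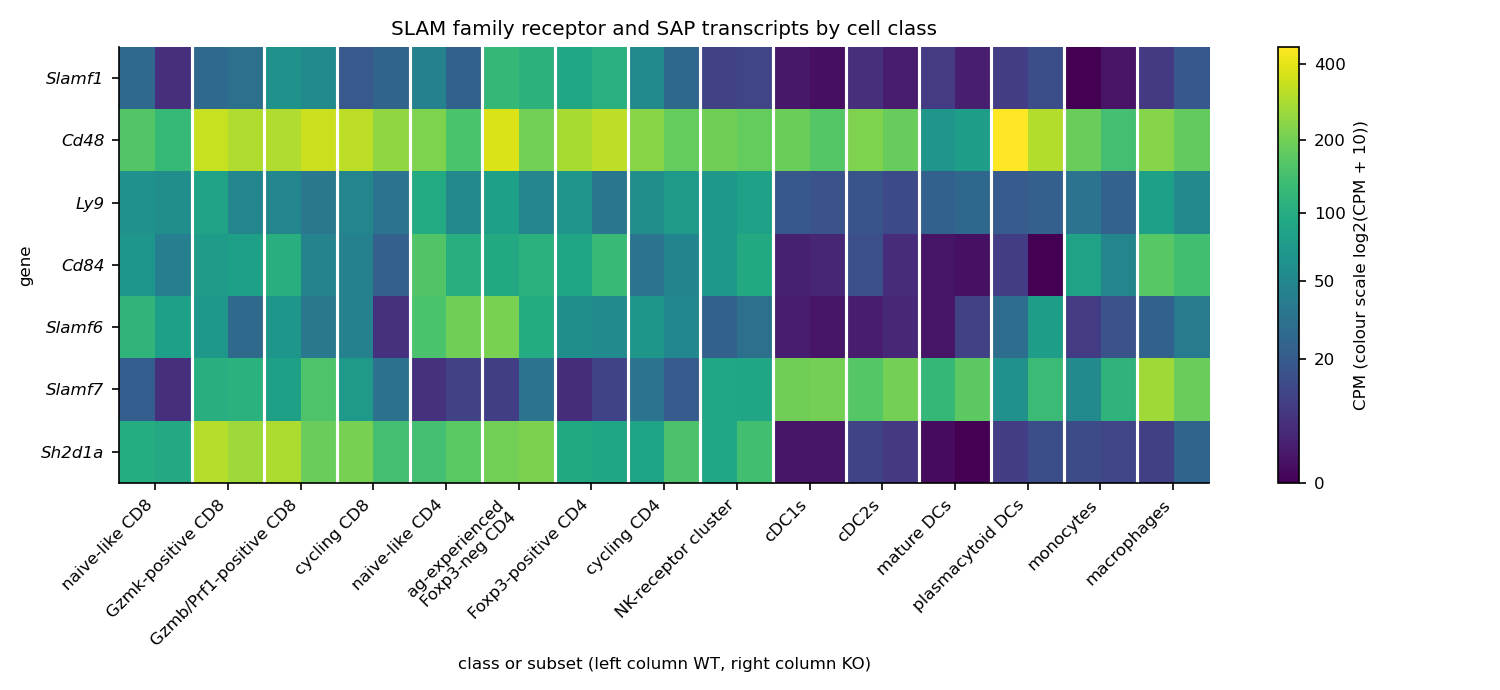
Level of each gene (rows) in 15 non-overlapping classes and subsets (columns in pairs, WT left and KO right), as CPM on a log2(CPM + 10) colour scale. Slamf7 is bright in macrophages, cDC1s, cDC2s, mature DCs and granzyme-positive CD8 T cells, while Sh2d1a, Slamf6 and Slamf1 are dark in cDC1s, cDC2s and mature DCs.

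In CD8 T cells (167 WT and 183 KO cells), the class in which Tcf7 was targeted, 3 of the 7 members were at least 1.5-fold lower in KO and none was at least 1.5-fold higher. Over all 5032 genes measured well enough there, 6.56% were lower and 6.56% higher by that measure. The 3 were Slamf6, Cd84 and Ly9, and the median log2 difference of the 7 members was -0.42, beside 0.05 over all genes. These are values of 1 library against 1 library, for a list chosen with earlier results of these data known.

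Slamf6 had the lowest ratio of the 7. It was at 70.3 CPM in WT (86 UMIs) and at 19.8 CPM in KO (40 UMIs), a ratio of 0.282 (0.189 to 0.415). Cd84, a receptor that binds itself and signals through SAP, was at 69.4 and 36.7 CPM (0.528, 0.381 to 0.730). Ly9, which encodes SLAMF3, was at 62.1 and 39.7 CPM (0.639, 0.461 to 0.886). The intervals of these 3 ratios and that of Sh2d1a left out 1. Sh2d1a was at 216 and 162 CPM (0.746, 0.633 to 0.881). Slamf1 (31.0 and 28.7 CPM), Slamf7 (70.3 and 61.0 CPM) and Cd48 (293 and 256 CPM) had ratios of 0.926, 0.868 and 0.872, and the intervals of the first pair ran from 0.605 to 1.43 and from 0.653 to 1.16.

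Cycling cells weighed on these sums. They were 13.2% of WT and 30.6% of KO CD8 T cells and gave 38.2% and 61.4% of the UMIs of the class. Without them the log2 difference of Slamf6 was -1.11 instead of -1.83, Slamf6 was the 1 member still at least 1.5-fold lower, and Slamf7 turned from -0.20 to 0.60. With T cells divided by cluster instead of by co-receptor UMIs the log2 difference of Slamf6 was -1.0. That division counts the cycling T cell cluster as CD8, with its 12 WT and 19 KO cells gated as CD4. Its CD8 class thus mixes in cells that the Cre does not target. The direction of Slamf6 held in these settings, while its size moved.

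**Figure D2:**
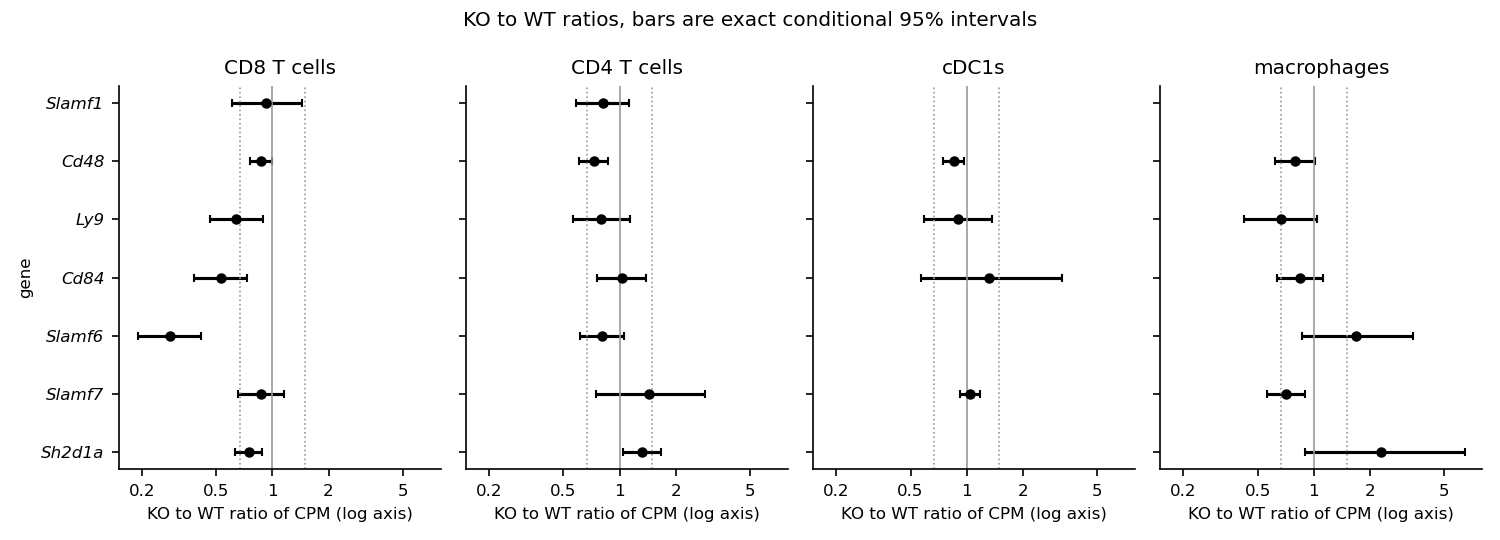
KO to WT ratio of CPM (x, log axis) of each member (y) in CD8 T cells, CD4 T cells, cDC1s and macrophages, with exact conditional 95% intervals over counting error; genes with fewer than 20 UMIs over both libraries are not drawn, and dotted lines mark 1.5-fold. In CD8 T cells Slamf6 lies farthest to the left at 0.282, and in cDC1s Cd48 and Slamf7 lie near 1.

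Within CD8 T cells, Slamf6 was lower in KO in each of the 4 subsets, with intervals that left out 1 only in cycling cells. The subsets left out 32 of 167 WT and 9 of 183 KO CD8 T cells, which the sums of the class include. Naive-like CD8 T cells had the highest level, at 116 CPM in WT (38 cells) and 79.4 CPM in KO (34 cells), a ratio of 0.687 (0.299 to 1.49). Gzmk-positive cells, which carry the granzyme of early effector and memory cells, were at 68.6 and 28.1 CPM (0.410, 0.15 to 1.03). The gate drew on different clusters, since a cluster led by Xcl1, Prf1 and Lag3 held 3 of the 44 WT and 16 of the 42 KO cells, and without it the values were 81.2 and 56.8 CPM (0.700, 0.222 to 1.91). Cells with Gzmb or Prf1 and no Gzmk were at 66.8 and 37.0 CPM (0.554, 0.237 to 1.27). Naive-like cells were highest and cycling cells lowest in both libraries, with the other two subsets in different orders. At these counts the naive-like level could be told apart from that of cycling cells in both libraries and from that of Gzmk-positive cells in KO only.

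The difference was widest in cycling CD8 T cells, where depth was alike. Slamf6 was at 44.9 CPM in 22 WT cells and at 7.27 CPM in 56 KO cells (0.162, 0.0653 to 0.369). A Slamf6 UMI was found in 10 of the 22 WT cells (45.5%, exact binomial interval 24.4 to 67.8%) and in 8 of the 56 KO cells (14.3%, 6.38 to 26.2%), at median depths of 21919.5 and 20239.5 UMIs. In cDC1s, which should lack Slamf6, 4.40% of the cells of each library held a UMI, at 16016 and 16746 UMIs. UMIs of antigen-presenting cell genes were 0.364% of the total in the WT and 0.0518% in the KO cycling cells. Without the 2 WT and 1 KO cells over 0.5% the values were 51.4 and 6.57 CPM (0.128, 0.0489 to 0.30), so the difference was no smaller there. Without the cluster led by Xcl1 it was 0.153 (0.0584 to 0.363). Tcf7 in cycling CD8 T cells was at 32.1 and 8.89 CPM.

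Over all CD8 T cells, each thinned to 2000 UMIs, 15.7% of WT and 6.89% of KO cells held a Slamf6 UMI, against 0.493% and 0.643% of cDC1s. Unthinned, the CD8 shares were 32.9% and 18.0%. The cells under 2000 UMIs that were left out were 9 of 167 and 6 of 183.

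Slamf6 was higher in cells with a Tcf7 UMI than in those without one. Among CD8 T cells outside the naive-like subset, the 57 WT cells with a Tcf7 UMI had 121 CPM of Slamf6 and the 72 cells without one had 31.0 CPM, a ratio of 3.90 (2.27 to 6.90). In KO the 37 cells with a Tcf7 UMI had 46.6 CPM and the 112 without one 11.9 CPM (3.93, 1.58 to 9.03). Median depths were 4768 and 6002.5 UMIs in WT and 4146 and 14132 UMIs in KO. Leaving out cycling cells as well, the WT values were 119 and 43.3 CPM (2.76, 1.42 to 5.63) and the KO values 44.8 and 26.8 CPM (1.67, 0.565 to 4.51). Cd84 had the same direction in WT, at 113 and 47.2 CPM (2.38, 1.46 to 3.91), and was at 51.8 and 34.4 CPM in KO (1.51, 0.686 to 2.97). Without cycling cells its ratios were 2.24 (1.23 to 4.16) in WT and 0.776 (0.309 to 1.72) in KO. Sh2d1a had ratios of 1.18 (0.906 to 1.54) in WT and 1.54 (1.11 to 2.11) in KO, which were 0.882 (0.626 to 1.24) and 1.09 (0.721 to 1.60) without cycling cells. Slamf7, Ly9, Cd48 and Slamf1 had WT ratios of 1.06 to 1.46 with intervals that held 1. A missing Tcf7 UMI does not show that a cell lacks the transcript.

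**Figure D3:**
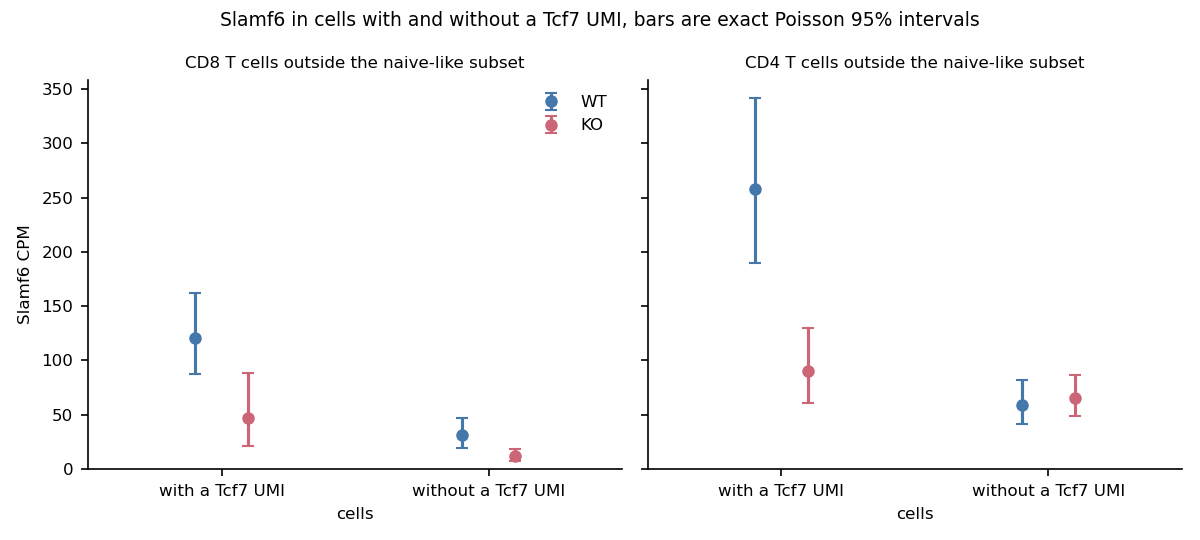
Slamf6 level (CPM, y) in cells with and without a Tcf7 UMI (x), for CD8 and CD4 T cells outside the naive-like subset, WT blue and KO red, with exact Poisson 95% intervals. WT cells with a Tcf7 UMI stand highest in both lineages, at 121 CPM in CD8 and 258 CPM in CD4 T cells.

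Sh2d1a, the adaptor SAP, was found mainly in lymphoid cells. It was highest in Gzmk-positive CD8 T cells, at 302 CPM in WT and 263 CPM in KO, and lowest among CD8 subsets in naive-like cells, at 99.0 and 93.8 CPM. Within a library the ratio of these subsets was 3.05 (1.79 to 5.45) in WT and 2.81 (1.55 to 5.52) in KO. The KO to WT ratio was 0.650 (0.451 to 0.936) in Gzmb/Prf1-positive cells, 0.678 (0.526 to 0.878) in cycling cells, 0.873 in Gzmk-positive and 0.947 in naive-like cells. In CD4 T cells Sh2d1a was at 125 CPM in WT and 164 CPM in KO, a ratio of 1.32 (1.05 to 1.66). This rested on the setting, since the log2 difference of 0.40 became 0.03 with T cells divided by cluster and 0.03 with each cell's CPM averaged. The division by cluster counts the cycling T cell cluster as CD8, with its 12 WT and 19 KO cells gated as CD4. Sh2d1a had a ratio of 1.82 in cycling CD4 T cells and of 0.944 to 1.19 in the other CD4 subsets. By the sums, WT CD8 T cells had 1.73 times the level of WT CD4 T cells (1.39 to 2.17), while in KO the ratio of both lineages was 0.983 (0.824 to 1.18). Thinned to 2000 UMIs, Sh2d1a was found in 31.5% and 26.3% of CD8 and in 24.2% and 23.9% of CD4 T cells, so the CD4 difference in CPM was not seen in the share of cells.

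The Sh2d1a UMIs of antigen-presenting classes came almost wholly from cells that also held a Cd3 UMI. Macrophages had 7 WT and 17 KO UMIs of Sh2d1a (10.8 and 24.6 CPM), and 18 of 71 WT and 11 of 63 KO macrophages held a Cd3 UMI. In the macrophages without one there was no Sh2d1a UMI in either library, and the same held in cDC1s, cDC2s, mature DCs and plasmacytoid DCs. In monocytes without a Cd3 UMI, 2 Sh2d1a UMIs remained, both in KO. Slamf1 behaved the same way in macrophages, monocytes and cDC2s (0 UMIs left), whereas in mature DCs all 8 WT and 2 KO Slamf1 UMIs lay in cells without a Cd3 UMI.

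**Figure D4:**
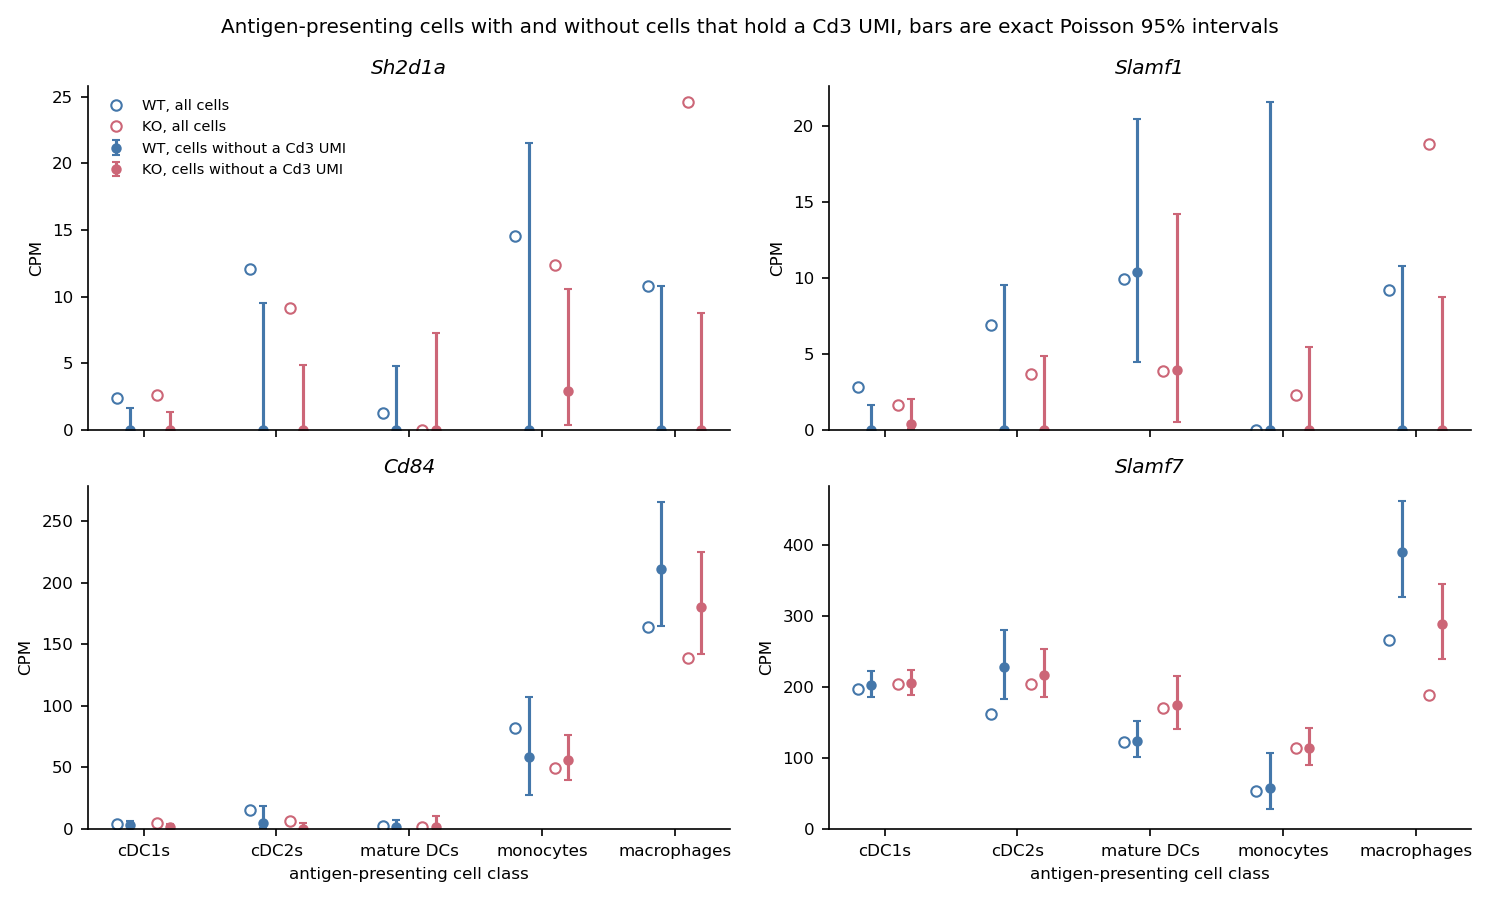
Level (CPM, y) of 4 members in 5 classes of antigen-presenting cells (x), over all cells (open circles) and over cells without a Cd3 UMI (filled circles, exact Poisson 95% intervals), WT blue and KO red. Sh2d1a is at 0 in filled circles except in KO monocytes, while Slamf7 and the macrophage level of Cd84 stay high.

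Slamf7 had its highest levels in macrophages, cDC1s, cDC2s and mature DCs. In cDC1s, the cross-presenting dendritic cells, it was at 197 CPM in WT (159 cells) and 205 CPM in KO (182 cells), a ratio of 1.04 (0.924 to 1.17), and 88.7% and 91.8% of cells held a UMI. Within cDC1s it was higher in non-cycling than in cycling cells, by a ratio of 1.55 (1.23 to 1.97) in WT and 1.80 (1.48 to 2.20) in KO. Of the 2 members that could be compared in cDC1s (Cd48 and Slamf7), none was 1.5-fold lower or higher, beside 2.5% and 2.24% of all genes there. In cDC2s Slamf7 was at 162 and 204 CPM (1.26, 0.983 to 1.62), and again 0 of 2 members passed 1.5-fold, beside 10.5% lower and 8.72% higher. In cDC2s without a Cd3 UMI Slamf7 was at 228 and 217 CPM, so the higher KO level was not seen there. Mature DCs, which have taken up a migratory programme, were at 122 and 171 CPM (1.40, 1.04 to 1.88), with 0 of 3 members past 1.5-fold beside 9.1% and 7.74%.

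Monocytes were at 53.3 CPM in WT (27 cells, 11 UMIs) and 115 CPM in KO (91 cells, 102 UMIs), a ratio of 2.15 (1.15 to 4.44). Macrophages were at 266 and 188 CPM (0.707, 0.559 to 0.893), but with each cell's CPM averaged the macrophage log2 difference turned from -0.50 to 0.20, while that of monocytes was 0.89 instead of 1.10. Without cells holding a Cd3 UMI, the monocyte values were 58.4 and 114 CPM and the macrophage values 390 and 289 CPM. Macrophages exceeded monocytes in both libraries, by a ratio of 4.99 (2.72 to 10.2) in WT and 1.64 (1.26 to 2.15) in KO. In monocytes 1 of 4 members was higher (Slamf7; 12.1% of all genes) and 1 was lower (Cd84; 13.5%). In macrophages 1 of 5 was lower (Ly9; 11.4%) and 1 was higher (Slamf6; 8.34%). These counts were not stable, since the monocyte call of Cd84 (82.4 and 49.5 CPM) and the macrophage call of Slamf6 (23.1 and 39.1 CPM) were lost without cells that held a Cd3 UMI, and the macrophage call of Ly9 was lost with another scaling.

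In T cells Slamf7 was a feature of the CD8 side. CD8 T cells exceeded CD4 T cells by a ratio of 4.43 (2.54 to 8.25) in WT and 2.67 (1.77 to 4.16) in KO. Gzmk-positive CD8 T cells were at 105 and 109 CPM (1.04, 0.585 to 1.86). In Gzmb/Prf1-positive cells, which carry the cytotoxic granule proteins granzyme B and perforin, Slamf7 was at 80.1 CPM in WT (18 UMIs) and 154 CPM in KO (50 UMIs), a ratio of 1.92 (1.10 to 3.50). With each cell's CPM averaged the log2 difference was 0.31, against 0.94 for the sums. Outside the cluster led by Xcl1, with 5 and 17 UMIs left, the ratio was 2.12 (0.752 to 7.36). In cycling CD8 T cells the values were 70.5 and 32.3 CPM (0.458, 0.282 to 0.75). Without the cycling cells over 0.5% antigen-presenting cell UMIs they were 58.8 and 32.8 CPM (0.559, 0.329 to 0.969). Naive-like CD8 T cells held 4 WT and 1 KO UMIs of Slamf7. Over CD8 T cells outside the naive-like and cycling subsets, Slamf7 was at 85.3 and 128 CPM (1.5, 1.04 to 2.18) and Slamf6 at 76.6 and 31.2 CPM (0.407, 0.227 to 0.706). Of the 107 WT and 93 KO cells summed here, 32 and 9 fell in no subset and held no Gzmk, Gzmb or Prf1 UMI. Their weight in these ratios was not tested. These sums mix clusters in different shares, since the cluster led by Xcl1 gave 3 WT and 16 KO Gzmk-positive and 13 WT and 18 KO Gzmb/Prf1-positive cells.

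**Figure D5:**
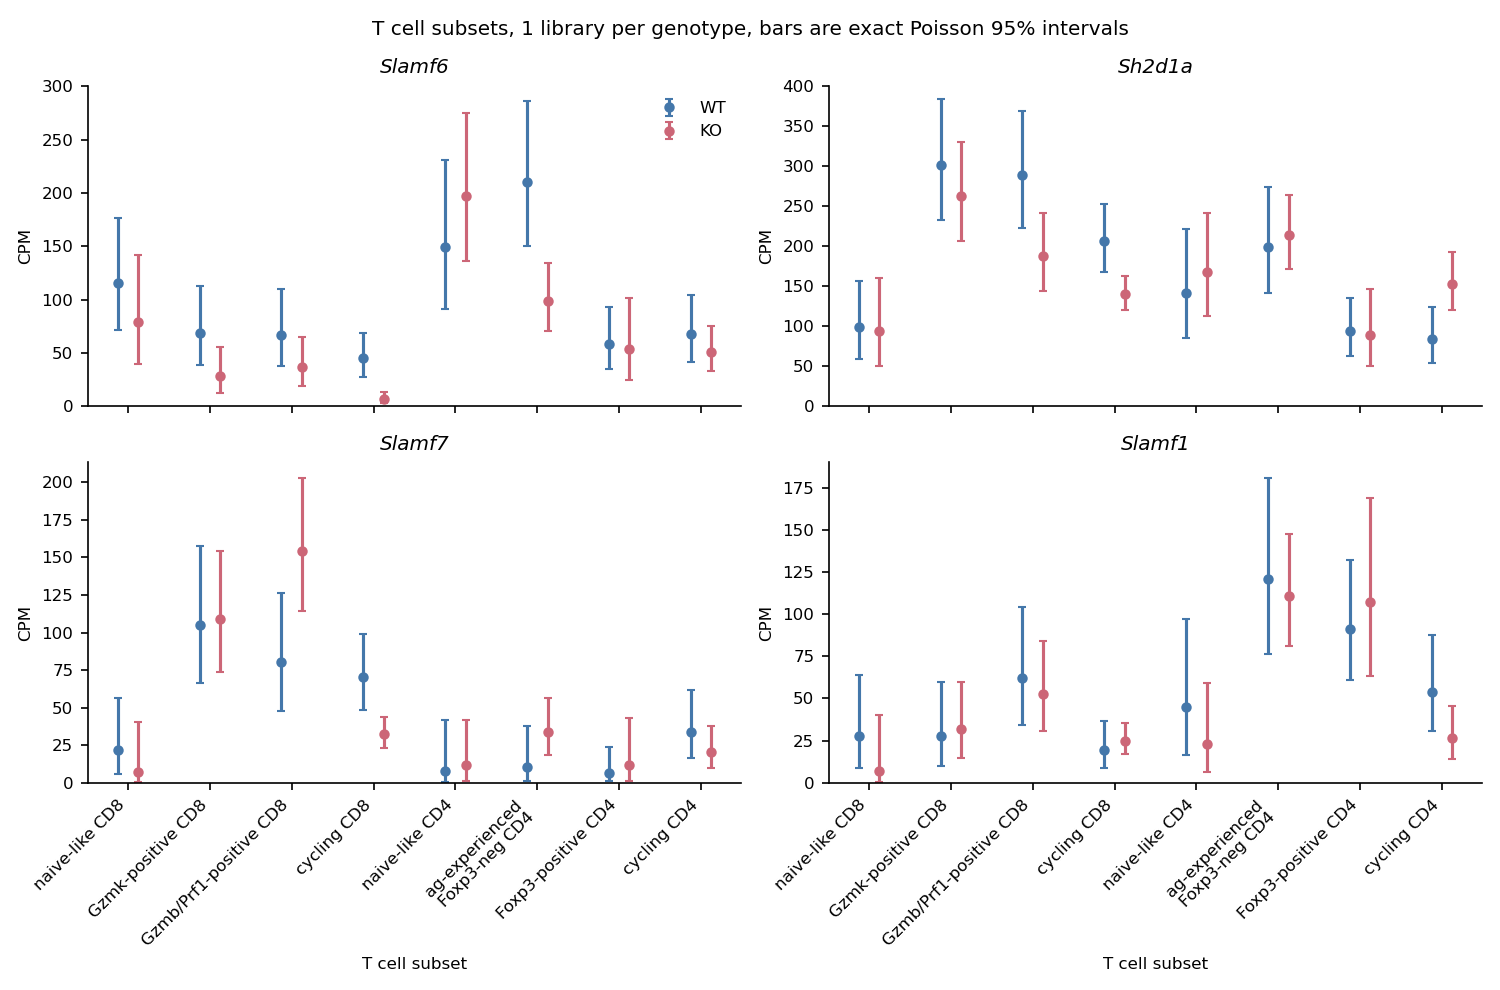
Level (CPM, y) of Slamf6, Sh2d1a, Slamf7 and Slamf1 in 8 T cell subsets (x), WT blue and KO red, with exact Poisson 95% intervals. KO cycling CD8 T cells are lowest for Slamf6 at 7.27 CPM, KO Gzmb/Prf1-positive CD8 T cells are highest for Slamf7 at 154 CPM, and Slamf1 is highest in antigen-experienced and Foxp3-positive CD4 T cells.

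Slamf1, which encodes CD150, was higher in antigen-experienced than in naive-like CD4 T cells. Antigen-experienced Foxp3-negative CD4 T cells (a UMI of Icos, Pdcd1, Tnfrsf4 or Cxcr6) were at 121 CPM in WT and 111 CPM in KO, and Foxp3-positive cells, the regulatory T cells, at 91.4 and 107 CPM. Naive-like CD4 T cells were at 44.8 and 23.2 CPM. The ratio of antigen-experienced to naive-like CD4 T cells was 2.70 (1.07 to 8.10) in WT and 4.78 (1.75 to 18.3) in KO, and that of Foxp3-positive to naive-like cells was 2.04 (0.829 to 6.03) and 4.62 (1.52 to 18.8). CD4 exceeded CD8 T cells by a ratio of 2.52 (1.68 to 3.83) and 2.22 (1.56 to 3.16). Its KO to WT ratio was 0.918 (0.545 to 1.59) in antigen-experienced and 1.17 (0.611 to 2.20) in Foxp3-positive cells, and 0.494 (0.219 to 1.10) in cycling CD4 T cells (53.9 and 26.6 CPM). A shallow T cell cluster that was left unnamed (54 WT and 25 KO cells) had more Slamf1 still, at 210 and 179 CPM. Its leading genes were Ramp3, Tnfaip3 and Fosl2.

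Cd48, a receptor anchored by a lipid and the ligand of CD244, was detected in all 15 classes of both libraries. It was highest in plasmacytoid DCs in WT, at 469 CPM (17 cells), with 299 CPM in KO (11 cells), and at 434 and 343 CPM in their cells without a Cd3 UMI. It was lowest in mature DCs, at 65.5 and 76.7 CPM. The cDC1 level exceeded that of mature DCs by a ratio of 2.93 (2.20 to 3.97) in WT and 2.13 (1.54 to 3.02) in KO. Gzmk-positive CD8 T cells exceeded naive-like CD8 T cells by 2.12 (1.36 to 3.38) and 2.38 (1.40 to 4.27). The KO to WT ratio was 0.726 (0.608 to 0.866) in CD4 T cells (275 and 200 CPM) and 0.851 (0.749 to 0.967) in cDC1s (192 and 163 CPM). It was 0.529 (0.381 to 0.736) in antigen-experienced CD4 T cells, at 378 and 200 CPM, and 0.480 (0.320 to 0.716) there without the cluster led by Xcl1.

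Cd84 and Ly9 were found in both T cells and macrophages, and Cd84 also in monocytes (82.4 and 49.5 CPM, or 58.4 and 55.7 CPM without Cd3-holding cells). In the cluster with NK receptors, where most cells held a Cd3 UMI, Cd84 was at 69.0 and 94.6 CPM and Ly9 at 69.0 and 82.0 CPM. Cd84 was at 164 and 139 CPM in macrophages and at 3.97 and 5.27 CPM in cDC1s, ratios of 41.4 (21.7 to 88.8) in WT and 26.4 (15.4 to 48.0) in KO. In macrophages without a Cd3 UMI it was at 211 and 180 CPM. Among T cells, Cd84 in Gzmb/Prf1-positive CD8 cells was at 102 and 46.2 CPM (0.452, 0.219 to 0.904) and in cycling CD8 cells at 44.9 and 22.6 CPM (0.504, 0.276 to 0.933). In Gzmk-positive CD8 cells it was at 73.1 and 80.8 CPM (1.10, 0.559 to 2.24), but without the cluster led by Xcl1 the values were 59.5 and 133 CPM in Gzmk-positive cells (2.23, 0.939 to 5.42) and 164 and 47.3 CPM in Gzmb/Prf1-positive cells (0.288, 0.0899 to 0.813). Ly9 was at 78.4 and 52.1 CPM in macrophages (0.665, 0.421 to 1.04) and exceeded cDC1s by 4.20 (2.77 to 6.38) and 3.10 (1.97 to 4.85). Its values in the 8 T cell subsets lay between 33.9 and 97.0 CPM, and no subset had a KO to WT interval that left out 1.

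In CD4 T cells (144 WT and 163 KO cells), which the Cre does not target, 0 of the 6 members that could be compared were 1.5-fold lower or higher, beside 7.16% and 6.19% of 5376 genes. Slamf6 was at 111 and 89.6 CPM (0.807, 0.614 to 1.06). The subsets did not move alike. Naive-like CD4 T cells were at 149 CPM in WT and 197 CPM in KO (1.32, 0.738 to 2.42), Foxp3-positive cells at 58.7 and 53.6 CPM and cycling cells at 67.3 and 51.2 CPM. Antigen-experienced Foxp3-negative cells were at 210 CPM in 40 WT cells and at 98.8 CPM in 74 KO cells (0.470, 0.297 to 0.746). Tcf7 was lower in the same KO cells, at 236 and 84.3 CPM (0.357, 0.223 to 0.568), although they are outside the lineage of the Cre. A Slamf6 UMI was found in 45% of these WT and 39.2% of these KO cells, and 1 WT cell held 10 of the 40 UMIs, against at most 3 in a KO cell. With each cell's CPM averaged, without the top cell of each library, or without cells rich in antigen-presenting cell UMIs, the log2 difference lay between -1.10 and -0.78, against -1.09 for the sums. The cluster led by Xcl1, which is otherwise mostly of CD8 T cells, held 3 of these WT and 16 of these KO cells, and without it Slamf6 was at 167 and 117 CPM (0.700, 0.388 to 1.26) and Tcf7 at 220 and 135 CPM. In CD4 T cells outside the naive-like subset, WT cells with a Tcf7 UMI had 258 CPM of Slamf6 and those without 59.2 CPM (4.35, 2.77 to 6.87), and the KO values were 90.2 and 65.6 CPM (1.38, 0.841 to 2.21). Sh2d1a had 231 and 89.6 CPM in those WT groups (2.57, 1.69 to 3.90) and 180 and 157 CPM in the KO groups (1.15, 0.827 to 1.59).

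The cluster with NK receptors was small. Its 19 WT and 27 KO cells held 92.1 and 88.3 CPM of Slamf7, 92.1 and 139 CPM of Sh2d1a and 69.0 and 94.6 CPM of Cd84, and the intervals of all members that could be compared held 1. Only 5 WT and 10 KO of these cells were free of Cd3 UMIs, and they held 3 and 15 UMIs of Slamf7 and Sh2d1a together, so levels in NK cells proper were not resolved at this depth. In plasmacytoid DCs Slamf6 had 6 WT and 10 KO UMIs, of which 1 and 7 lay in cells without a Cd3 UMI.

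Of 37 genes listed as partners of the pathway, few were apart between the libraries in T cells. Besides signalling genes the list holds related receptors such as Slamf8 and Slamf9 and lineage genes linked to SAP such as Maf and Cxcr5. All are counted as partner genes here. In CD8 T cells 1 of 20 was at least 1.5-fold lower and none higher, beside the 6.56% of all genes in each direction. That gene was Prkcq, the kinase PKC theta that acts downstream of the T cell receptor, at 121 and 66.4 CPM (0.549, 0.432 to 0.699). Fyn, the kinase recruited by SAP, was at 76.8 and 60.0 CPM (0.781, 0.592 to 1.03), and Cd2 at 365 and 346 CPM. In CD4 T cells 2 of 21 were lower and 1 was higher, beside 7.16% and 6.19% of all genes. Maf, a transcription factor of helper T cells, was at 180 and 116 CPM, and Dok1, which encodes an adaptor, at 43.4 and 23.6 CPM (0.544, 0.328 to 0.892). Ptpn11, which encodes a phosphatase that binds SLAM receptor tails, was at 44.4 and 84.1 CPM (1.89, 1.31 to 2.77). In the cluster with NK receptors Csk, a kinase that restrains Src-family kinases, was at 149.6 and 277 CPM (1.85, 0.981 to 3.75). Cd2 was at 669 and 506 CPM in CD4 T cells and Fyn at 80.4 and 73.9 CPM.

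Among antigen-presenting cells, cDC1s had 0 of 17 partner genes past 1.5-fold, beside 2.5% of all genes lower and 2.24% higher. Slamf9, at 7.55 and 17.4 CPM (2.31, 1.35 to 4.13), and the kinase gene Fgr, at 13.1 and 8.23 CPM (0.628, 0.358 to 1.09), lay below the level asked of those 17. The cDC2s had 5 lower and 1 higher of 23, beside 10.5% and 8.72%. In cDC2s the related receptor gene Slamf9 was at 214 and 123 CPM (0.572, 0.445 to 0.737), Slamf8 at 79.4 and 164 CPM (2.06, 1.48 to 2.92) and Cd2 at 89.8 and 51.2 CPM. Pik3r1 was at 50.1 and 27.4 CPM there. In macrophages Bcl10 was at 104 and 65.1 CPM (0.623, 0.418 to 0.921). Mature DCs had 2 of 19 partner genes lower and 2 higher, beside 9.1% and 7.74% of all genes. Monocytes had 2 of 23 lower and none higher, beside 13.5% and 12.1%, and Lck, a kinase of T cells, was at 87.3 and 50.6 CPM there (0.580, 0.329 to 1.06). A Cd3 UMI was held by 3 of 27 WT and 14 of 91 KO monocytes. The same was true of 8 of 36 WT and 19 of 74 KO cDC2s. Partner gene values include these cells, and how much of Lck and Cd2 there is T cell RNA was not tested. Macrophages had 3 of 23 lower and 2 higher, beside 11.4% and 8.34%. In plasmacytoid DCs Slamf9 was at 615 and 268 CPM (0.436, 0.290 to 0.639). Cd244, the receptor for CD48, was highest in monocytes, at 82.4 and 106 CPM, beside 27.0 and 29.6 CPM in cDC1s and 18.0 and 19.3 CPM in CD8 T cells. Plasmacytoid DCs were at 75.6 and 61.3 CPM of Cd244 and cDC2s at 36.3 and 46.7 CPM. The WT values of monocytes and plasmacytoid DCs rested on 17 and 15 UMIs. In the cluster with NK receptors Cd244 had 1 WT and 11 KO UMIs (11.5 and 69.4 CPM). Fyn was at 36.5 CPM in cDC1s of both libraries. Sh2d1b1, whose product is the adaptor of SLAMF7, had 5 WT and 3 KO UMIs in cDC1s, 8 and 14 in cDC2s and 8 and 3 in macrophages, so the classes richest in Slamf7 held few UMIs of it.

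Over 33 points, each a class or subset of 1 library, the genes most like each member were found among 5167 genes by the correlation of log2(CPM + 10). The points overlap in cells and share libraries and depth, so these are descriptions. S1pr1 belongs to the naive-like gate, and Cd3e and Cd5 to the T cell markers that named clusters. Their correlations therefore follow in part from how the classes were made. Sh2d1a was most like Thy1 (0.98), Ms4a4b (0.97) and Cd3e (0.97), which are T cell genes. Slamf6 was most like S1pr1 (0.92), the receptor with which T cells leave lymphoid organs, Dgka and Tecpr1. Slamf1 was most like Cd5 (0.94), Batf and Cd6, and Cd84 like Fyb (0.93), Pld3 and Ctsd. Cd48 went with Lpxn (0.88), Anxa6 and Alg5, Ly9 with Pitpnc1 (0.85), Slc28a2 and Tecpr1, and Slamf7 with Efhd2 (0.91), Serf2 and Akr1a1. Slamf7 was the 1 member that ran against every other, with correlations of -0.22 (Cd48) to -0.77 (Slamf6), while the other 15 pairs of members lay between 0.38 and 0.85.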

How the data were processed

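Raw UMI counts of 1 WT and 1 KO droplet library were used as the authors deposited them, per the file headers and the whole-number values. The submitters' processing notes name Cell Ranger 1.3 and mm10, while the matrix header names software 3.0.2. The annotation, the read end and the strand setting are not given in the sources used here. Barcodes under 500 UMIs or 300 genes or over 10% mitochondrial UMIs were left out (132 of 1120 in WT, 133 of 1219 in KO), as were the doublets that Scrublet called (8 and 2, or 0.810% and 0.184%). Clustering in scanpy 1.11.5 used 2000 variable genes without the members and Tcf7, 30 principal components and 15 neighbours. The Leiden resolution was 2 and returned 24 clusters. The deposited totals were 9283014 and 11758449 UMIs. Few doublets were called, so mixed cells can remain, and 3 clusters with mixed or shallow profiles were left unnamed.

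T cells with a Cd8a or Cd8b1 UMI and no Cd4 UMI were taken as CD8, and the reverse as CD4. Cycling cells held at least 3 of 14 cycling genes. Naive-like cells held at least 2 of Ccr7, Lef1, S1pr1, Igfbp4 and Dapl1 and no Gzmb, Prf1, Gzmk or Foxp3 UMI. In CD8 T cells, 29 WT and 20 KO cells lay at the naive-like limit and 50 and 45 were 1 gene short of it. UMIs were summed per class and divided by the class total to give CPM, with exact Poisson intervals, exact conditional binomial intervals for ratios and Clopper-Pearson intervals for shares, all at 95%. Members counted as lower or higher differed by at least 1.5-fold, with a mean of at least 20 CPM and at least 20 UMIs over both libraries. Shares of cells at 2000 UMIs are averages over all draws.

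The members and lists were chosen with earlier results of these data known. The named genes are the 7 members, Tcf7, and from the partner list up to 4 per class with at least 50 UMIs and 1.5-fold, plus Fyn, Cd244, Sh2d1b1 and Cd2, with the 3 most alike genes per member. Scripts were tested on simulated data. Of the matrices' gene IDs, 27645 of 27998 (98.7%) were found in GENCODE on GRCm38.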

Additional observations from a re-analysis of the deposited data

Results flagged for a closer look

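Some KO to WT ratios lay on opposite sides of 1 in different cell classes, with intervals over counting error that left out 1 on both sides. In none of these cases was the difference tested, since each class has 1 library per genotype. Slamf7 had a ratio of 0.707 in macrophages, 1.40 in mature DCs and 2.15 in monocytes. With each cell's CPM averaged the log2 difference in macrophages was 0.20 instead of -0.50, so the opposite sides were lost. Within CD8 T cells, Slamf7 had a ratio of 0.458 in cycling cells and 1.92 in Gzmb/Prf1-positive cells, where the log2 difference was 0.31 instead of 0.94 with each cell's CPM averaged. Sh2d1a had a ratio of 0.746 in CD8 and 1.32 in CD4 T cells, and the CD4 log2 difference of 0.40 became 0.03 with T cells divided by cluster and 0.03 with each cell's CPM averaged. The division by cluster counts the CD4 T cells of the cycling cluster as CD8. By subset, Sh2d1a was at 0.650 in Gzmb/Prf1-positive CD8 T cells, 0.678 in cycling CD8 T cells and 1.82 in cycling CD4 T cells, where it was at 84.2 CPM in 15 WT cells and 153 CPM in 19 KO cells. With each cell's CPM averaged the log2 differences of Sh2d1a were -0.20 instead of -0.62 in the Gzmb/Prf1-positive and 0.29 instead of 0.87 in the cycling CD4 T cells.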

How the results depend on the processing

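No paired analysis was possible because each genotype has 1 library. The median log2 difference of all genes lay between -0.03 and 0.05 in each class. For CD8 T cells, Slamf6 stayed lower in KO in all settings, at a log2 difference of -1.0 with T cells split by cluster and -1.11 without cycling cells, while Slamf7 was at 0.60 without cycling cells and Sh2d1a at -0.17 with each cell's CPM averaged. The split by cluster counts the CD4 T cells of the cycling cluster as CD8. The count of members lower in CD8 T cells was 1 instead of 3 at 2-fold, with T cells split by cluster and without cycling cells, and 1 was higher in the last setting. Over 10 other settings of the log2 difference, Ly9 was at least 1.5-fold lower in 7, Cd84 in 8 and Slamf6 in 10. In CD4 T cells 1 was lower with each cell's CPM averaged and without cycling cells. Small counts moved in the antigen-presenting classes. With only 10 UMIs asked for, 1 member was lower in cDC1s, in cDC2s and in mature DCs, 2 were higher in monocytes and 3 in macrophages. In mature DCs 2 were higher with each cell's CPM averaged and 1 without the top cell. In monocytes the 1 lower call became 0 at 2-fold, without cells holding a Cd3 UMI and without the top cell, and 2 with each cell's CPM averaged. In macrophages the 1 higher call became 0 at 2-fold, at a mean of 50 CPM, with each cell's CPM averaged, without Cd3-holding cells and without cycling cells, and 2 with totals that leave out ribosomal and mitochondrial genes. The 1 lower call became 0 at 2-fold, at 5% mitochondrial UMIs, with the median-ratio size factor and with those totals, and 2 with each cell's CPM averaged. The higher call was lost without Cd3-holding cells through the limit of 20 UMIs, since Slamf6 was at 14.6 and 28.4 CPM there. Slamf6 in macrophages reversed to -0.98 with each cell's CPM averaged, from 0.76. The cause was not tested. Leiden resolution 1 moved none of these counts. Depth left NK cells, plasmacytoid DCs and most low genes unresolved. The Cd3 setting, the subsets without the cluster led by Xcl1 and Leiden resolution 1 were added after seeing the data.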
